A study of Mus musculus with 143 samples.

Results

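Galectin-3, the product of Lgals3, is a sugar-binding protein that phagocytes make in large amounts. The cells described here are the non-cycling cells among microglia sorted from the cerebellum of male wild-type C57BL/6N mice at postnatal day 7, compared between those with much and those with little Lgals3 RNA. Single cells of the CD45-low, CD11b-positive, Gpnmb-positive and Clec7a-positive gate were sorted into the wells of 2 plates and sequenced by Smart-seq2, which copies whole transcripts and uses no molecular identifiers. A pooled library name in the labels holds the word adult, while the age label and the title of the series give the postnatal day that is used here. The animals were pooled, so all 143 cells form 1 sample: cells are not replicates, no test was made, and the plates serve only as technical batches. All cells passed the same gate for Gpnmb and Clec7a protein, so microglia outside that gate are not represented on either side.

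A cell counted as non-cycling when at most 1 of 8 mitotic genes and at most 3 of 10 S-phase genes reached 10 CPM, where CPM is a gene's count per 1000000 gene counts of the cell. The members were thus chosen by measured values of these 18 genes, and the groups below were selected on Lgals3. This left 72 of 143 cells, 43 of 95 on plate 1 and 29 of 48 on plate 2. On each plate they were ranked by Lgals3 CPM and divided by rank into 3 groups: 23 Lgals3-low cells (14 on plate 1, 9 on plate 2), 26 Lgals3-middle cells (15 and 11) and 23 Lgals3-high cells (14 and 9). Of the 71 cells left out, 46 exceeded the mitotic limit and 25 exceeded the S-phase limit alone. Just inside the limits lay 16 cells with exactly 1 mitotic gene and 15 with exactly 3 S-phase genes, and just outside lay 6 cells with 2 mitotic genes and 8 with 4 S-phase genes.

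Microglia that clear dying cells and myelin debris in the first postnatal weeks, called proliferative-region-associated microglia or PAM, carry much of the expression state of disease-associated microglia, or DAM. In that state genes of lipid handling, lysosomes and secreted factors are high, and genes of resting, homeostatic microglia such as the purine receptor P2ry12 and the fractalkine receptor Cx3cr1 are low. Galectin-3 is found in the cytosol, binds damaged lysosomes from the inside of the cell, and is also secreted without a signal peptide, after which it binds branched N-glycans on receptors.

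Lgals3 itself, a gene at chr14:47367751-47386160 on the plus strand of mm10, fixed the groups, so its levels are a description. In Lgals3-low cells its level ran from 0 through a median of 152 to 558 CPM, and 14 of the 23 cells had a read (60.9%, exact binomial 95% interval 38.5 to 80.3%, counting error only). Lgals3-middle cells ran from 461 through 848 to 1577 CPM, and Lgals3-high cells from 1461 through 2779 to 6644 CPM. The groups touch only because each plate was ranked on its own: on plate 1 the Lgals3-high cells began at 1461 CPM, just above 1320 CPM for the highest middle cell, and on plate 2 they began at 1712 CPM, just above 1577. The low groups ended at 558 CPM on plate 1 and 410 CPM on plate 2, just below middle cells at 573 and 461 CPM. Non-cycling cells as a whole had a median of 848 CPM and the cells left out had 1225 CPM. This difference came from plate 2, with medians of 617 and 1488 CPM, while plate 1 had 954 and 923 CPM. The means over both plates went the other way, 1402 CPM in non-cycling cells and 1338 CPM in those left out.

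The cells fitted their label of microglia: the 14 microglial markers summed to a median of 36957 CPM in Lgals3-low and 25115 CPM in Lgals3-high cells, and 13 of them were read in over 20% of the cells of at least 1 of these groups. The exception was Tmem119, read in 8.70% of the cells of each group. Markers of border-associated macrophages summed to medians of 565 and 494 CPM (ranges 0 to 3381 and 0 to 1936), with Cd163, Lyve1, Cd209f, F13a1 and Clec12a at 0 in both groups. Other members of that list were read: Stab1 in 82.6% of low and 86.96% of high cells, and Mrc1 in 60.9% of each group. Ms4a7 was read in 8.70% of low and 26.1% of high cells, and Pf4 and Siglec1 in under 20% of each group. Summed markers of T and natural killer cells and of pericytes and fibroblasts were at 0 in every cell of both groups. Of the oligodendrocyte markers, Mog, Mobp, Cldn11, Mal and Opalin were at 0, while Cnp was read in 2 low, 9 middle and 10 high cells. The log2 ratio of mean CPM plus 1 in high over low cells was 2.32 for Cnp (2.02 on plate 1 and 5.64 on plate 2). It was -0.62 for Mbp, which went opposite ways on the plates (3.46 and -3.70), and -0.32 for Mag (0 and -0.34). Mbp and Mag were read in only 8.70% and 4.35% of the cells of each of these groups. The part of these marker levels in the results below was not tested.

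Lgals3-high cells also gave more genes and more RNA relative to the added spike-in RNA. A median of 2506 genes (range 1552 to 3652) was detected in Lgals3-low, 2874.5 in middle and 3112 (2537 to 4550) in Lgals3-high cells, and 2477, 2838 and 3062 after each cell was thinned to 436333 gene counts. The median number of gene counts per spike-in count was 18.4 in low, 21.2 in middle and 25.03 in high cells. Median total counts were 729808, 741964 and 759852, so depth itself differed little. A higher CPM can therefore go with either more RNA of that gene or less of others, and the part of RNA amount in the differences below was not tested beyond the values given.

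**Figure D1:**
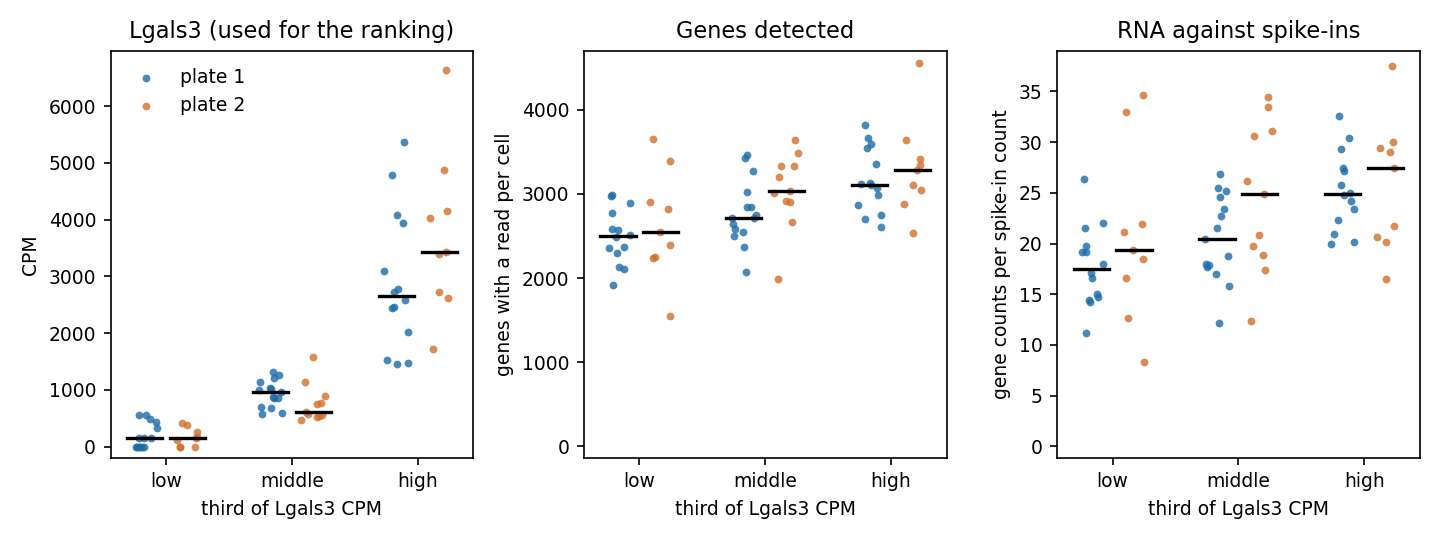
Each point is a non-cycling cell (blue plate 1, orange plate 2), placed by its group of Lgals3 rank, and black bars are medians. The panels show Lgals3 CPM, which set the groups, the number of genes with a read per cell, and gene counts per spike-in count; the median number of genes detected goes from 2506 in low to 3112 in high cells.

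A gene was compared where its mean over the 72 cells was at least 10 CPM and at least 20% of them had a read, which kept 4843 genes besides Lgals3. The log2 ratio given throughout is that of the mean CPM plus 1 in Lgals3-high over Lgals3-low cells, and a gene was called when the ratio was at least 1.5-fold in the same direction on each plate. By that rule 611 genes, 12.6%, were higher in Lgals3-high cells and 441 genes, 9.11%, were lower. On plate 1 alone the same fold was passed upward by 31.3% and downward by 26.9% of genes, and on plate 2 alone by 34.9% and 26.6%, and the sign was the same on both plates for 54.5% of all genes. Counts, shares and medians of the gene lists below are over genes among these 4843 unless said otherwise. Much of the list of 4843 genes is read in few cells, so the 720 genes read in at least 80% of the non-cycling cells were also counted apart, a limit set after the values were seen. Of these 720, 69 genes, 9.58%, were higher and 38 genes, 5.28%, were lower, and the sign was the same on both plates for 66.1%. The median log2 ratio was 0.06 over all genes compared and 0.13 over those 720. Scaling each cell to its spike-ins in place of its gene counts moved the median of all genes to 0.47, so values on that scale, given where they turn a sign, are to be read against 0.47. Lgals3-middle cells lay between the other groups in mean CPM for 67 of the 69 higher and 36 of the 38 lower genes, against 366 of all 720, although the ends of the called genes are apart by selection.

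**Figure D2:**
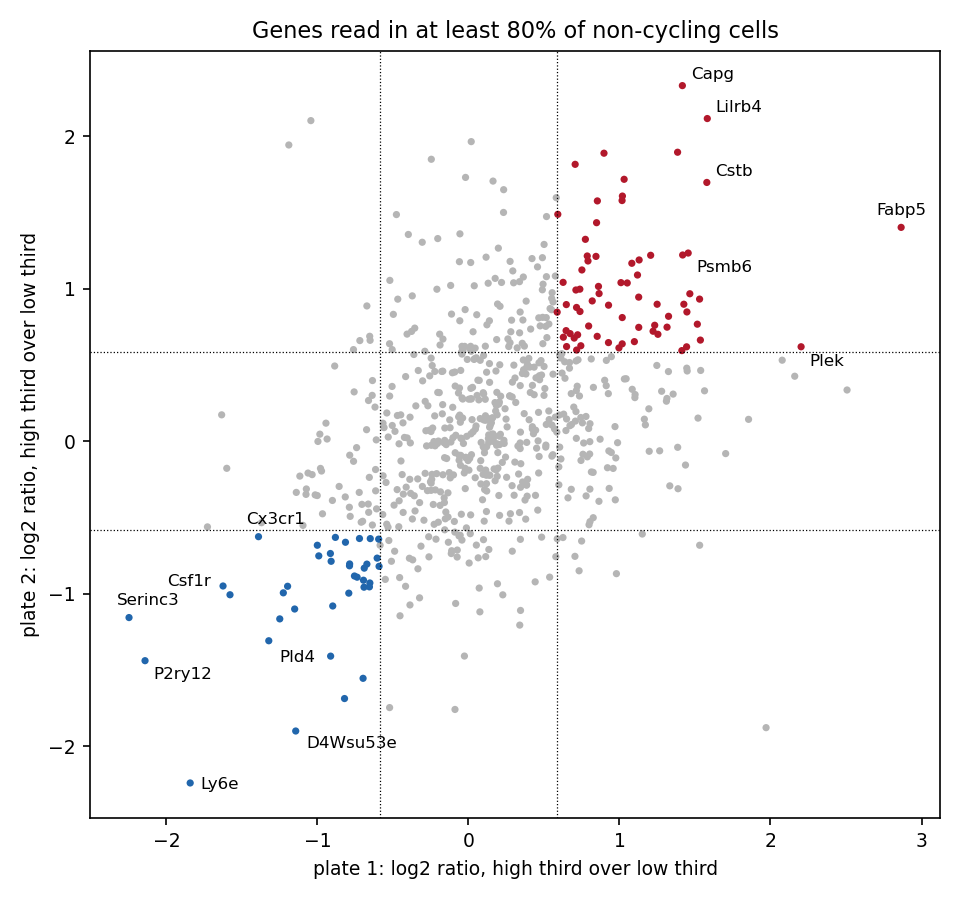
Each point is a gene read in at least 80% of non-cycling cells, with its log2 ratio of Lgals3-high over Lgals3-low cells on plate 1 (horizontal axis) and plate 2 (vertical axis); dotted lines mark 1.5-fold. Red points, 69 genes, were higher and blue points, 38 genes, lower by at least that fold on each plate, and grey points were not called; Lgals3 is left out.

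The gene whose level across cells was most like that of Lgals3 was Cstb (chr10:78425669-78427622), which encodes cystatin B, a cytosolic inhibitor of cysteine cathepsins. Spearman's rho between Cstb and Lgals3 CPM was 0.75 over the 43 cells of plate 1 and 0.74 over the 29 cells of plate 2. Cstb ran from 44.4 through a median of 381 to 720 CPM in Lgals3-low cells, from 79.6 through 569 to 981 CPM in middle cells and from 521 through 1093 to 1917 CPM in Lgals3-high cells. The low and high ranges overlapped in few cells, since 21 of 23 high cells lay above every low cell. The pooled level, summed counts over summed gene counts, was 358 CPM in low cells (95% Poisson interval 349 to 367) and 1122 CPM in high cells (1106 to 1138). Such intervals cover the counting error of reads only. Without molecular identifiers they do not cover the error of counting molecules. The log2 ratio was 1.62, with 1.58 on plate 1 and 1.70 on plate 2. It was 1.18 when the cells of each plate above and below the median number of genes detected were ranked separately.

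Among the 10 genes closest to Lgals3 by the smaller of both plates' rho were also Mif, Lilrb4, Psmb6, Pfn1, Rhoc, Atp5g1, Hspe1 and Vat1. Their rho ran from 0.54 (Pfn1 and Rhoc) to 0.65 (Vat1) on plate 1 and from 0.50 (Hspe1 and Vat1) to 0.72 (Pfn1) on plate 2, and over all genes 31 of 4843 exceeded 0.4 on both. These correlations are over cells of the same libraries that also share genes detected and RNA amount. Mif, a cytokine and tautomerase released by macrophages, had medians of 309 CPM in low, 427 in middle and 654 in high cells, with ranges of 1.43 to 639 in low and 251 to 1213 in high cells, and a log2 ratio of 1.05 (1.05 and 1.04 by plate). Psmb6, a catalytic subunit of the proteasome, had medians of 538, 767 and 1756 CPM and a log2 ratio of 1.36 (1.46 and 1.23). All 23 high cells lay above the low median for Psmb6, while its ranges of 22.5 to 2295 and 558 to 2314 CPM overlapped widely. Rhoc, a small GTPase that acts on actin, was read in 3 of 23 low, 16 of 26 middle and 19 of 23 high cells. Vat1, a vesicle membrane protein that belongs to the PAM and DAM list, was read in 6, 19 and 22 cells of those groups, and these numbers did not differ after cells were thinned to equal depth. For every gene named here, thinning took the reads from at most 2 cells of a group.

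Lilrb4, an inhibitory immunoglobulin-like receptor, was at 0 to 1144 CPM with a median of 229 in Lgals3-low cells and at 184 to 1973 CPM with a median of 637 in Lgals3-high cells. Its log2 ratio was 1.74 (1.58 and 2.12 by plate), and 22 of 23 high cells lay above the low median. Its neighbour and near-identical copy Gp49a went the same way, with a read in 5 low and 14 high cells and a log2 ratio of 3.77 (2.93 and 6.25). Counting may have divided reads between these copies, so the separate values are uncertain.

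Genes of the PAM and DAM state were partly higher with Lgals3. Of 37 listed genes 33 were compared, 9 were higher (Clec7a, Lpl, Fabp5, Lgals1, Cd9, Vat1, Capg, Anxa5 and Slc16a3) and 1 was lower (Gpx3), against 12.6% and 9.11% of all genes. The median log2 ratio of the 33 was 0.53, with 0.71 on plate 1 and 0.15 on plate 2, beside 0.06 for all genes. Fabp5, a fatty acid carrier, ran from 0 through 73.9 to 669 CPM in low, from 0 through 317 to 1561 CPM in middle and from 53.7 through 543 to 1565 CPM in high cells. Its log2 ratio of 2.08 differed between plates, 2.86 on plate 1 and 1.40 on plate 2, and 22 of 23 high cells lay above the low median.

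Capg, a protein that caps the barbed ends of actin filaments, ran from 0 through 245 to 1056 CPM in low, from 84.5 through 269 to 2060 CPM in middle and from 0 through 880 to 2020 CPM in high cells. Low and middle medians of Capg lay close together, and 20 of 23 high cells were above the low median, with a log2 ratio of 1.65 (1.42 and 2.33). Cd9, a tetraspanin of the cell surface, had a median of 3534 CPM (698 to 7212) in low, 5174 in middle and 6993 CPM (3484 to 9088) in high cells, and a log2 ratio of 0.86 (1.02 and 0.64). Lpl, which releases fatty acids from lipoproteins, had medians of 1046, 1384 and 2385 CPM and a log2 ratio of 1.01 (1.41 and 0.59), just past the fold on plate 2. Anxa5, which binds phosphatidylserine, had medians of 839, 1332 and 1695 CPM and a log2 ratio of 0.89 (0.75 and 1.12).

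Of the genes whose protein set the sort gate, Gpnmb was not called and Clec7a was. Gpnmb had medians of 4132 CPM in low, 4941 in middle and 3970 in high cells, its ranges overlapped almost fully, and its log2 ratio was 0.25 (0.14 and 0.39). Clec7a, the receptor dectin-1, passed the fold on its means (log2 ratio 0.93, 0.86 and 1.02 by plate), although its medians of 322 CPM in low and 343 CPM in high cells were close and rho with Lgals3 was only 0.09 and 0.19. The difference in its means came with a read in 17 low and 22 high cells and with a highest cell at 955 CPM in low and 2012 CPM in high cells.

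Several prominent genes of the state were not called. Spp1, which encodes the secreted phosphoprotein osteopontin, had medians of 41187, 54515 and 55464 CPM from low to high, with log2 ratios of 0.71 on plate 1 and 0.02 on plate 2. Igf1, a growth factor, had 848, 968 and 1410 CPM, with 1.27 on plate 1 and -0.06 on plate 2. The integrin Itgax went opposite ways on the plates, with 1.03 and -0.74. The lysosomal glycoprotein Cd68 (0.64 and 0.41) and the tetraspanin Cd63 (0.68 and 0.31) were higher on both plates and missed the fold on plate 2. Apoe, the main lipid carrier of glia, had medians of 47719, 40840 and 29564 CPM, was above the high median in 20 of 23 low cells, and had log2 ratios of -0.71 and -0.53, so it missed the fold on plate 2 in the direction opposite to most of its list. The adaptor Tyrobp differed by 0.08 and 0.15, and its receptor Trem2 by -0.29 and -0.52, a sign that turns to 0.06 over both plates when cells are scaled to their spike-ins.

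Homeostatic genes were lower in Lgals3-high cells. Of 31 listed genes 26 were compared, 10 were lower (P2ry12, Cx3cr1, Csf1r, Gpr34, Sall1, Selplg, Mef2c, Slco2b1, Ltc4s and Rnase4), against 9.11% of all genes, and 0 were higher. Their median log2 ratio was -0.75, with -0.98 on plate 1 and -0.42 on plate 2, and -0.56 when cells above and below the median of genes detected were ranked separately. It was -0.23 when cells were scaled to their spike-ins, where the median of all genes is 0.47, so that relative to all genes the list is lower on both scales. The summed level of the list was 23269 to 49558 CPM with a median of 32265 in low, 27288 in middle, and 7954 to 30949 CPM with a median of 20433 in high cells. Among its 12 genes read in at least 80% of cells, 6 were lower and 0 higher, against 5.28% and 9.58% of all such genes.

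Csf1r, the receptor for the survival factors CSF1 and IL-34, had the most negative rho with Lgals3 by the smaller of both plates' values, -0.74 on plate 1 and -0.59 on plate 2. It ran from 1311 through 3517 to 5703 CPM in low, from 872 through 2164 to 4989 CPM in middle and from 587 through 1307 to 2326 CPM in high cells. All 23 high cells lay below the low median, and 12 of them lay below every low cell. The pooled level was 3499 CPM (3471 to 3528) in low and 1330 CPM (1312 to 1348) in high cells, and the log2 ratio was -1.38 (-1.58 and -1.01). Its ligand gene Csf1 had a read in 10 low and 21 high cells, with a log2 ratio of 3.07 on plate 1 and -0.29 on plate 2, and was not called.

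Cx3cr1, the receptor for neuronal fractalkine, ran from 1776 through 4781 to 8525 CPM in low, from 991 through 3708 to 11020 CPM in middle and from 0 through 2325 to 5247 CPM in high cells. Its log2 ratio was -1.08 (-1.39 and -0.63), and 22 of 23 low cells lay above the high median. P2ry12, a receptor for nucleotides that guides microglial processes, ran from 0 through 511 to 3042 CPM in low, from 0 through 290 to 1223 CPM in middle and from 0 through 31.1 to 1558 CPM in high cells. Its log2 ratio was -2.02 (-2.14 and -1.44), although its ranges overlapped and 3 high cells lay above the low median. Sall1, which helps to set the identity of microglia, had reads in 18 low, 16 middle and 8 high cells, with a log2 ratio of -1.91 (-1.73 and -2.53). Gpr34, a lysophosphatidylserine receptor, had medians of 997, 837 and 491 CPM and a log2 ratio of -1.14 (-1.15 and -1.10).

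Other homeostatic genes did not pass. Fcrls had medians of 3418 CPM in low and 2673 CPM in high cells and a log2 ratio of -0.27, which became 0.18 with spike-in scaling, and Cst3, at -0.34, likewise turned to 0.16. P2ry13, P2ry6 and Siglech were lower on plate 1 (-1.63, -1.04 and -1.71) and higher on plate 2 (0.21, 0.37 and 0.62).

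**Figure D3:**
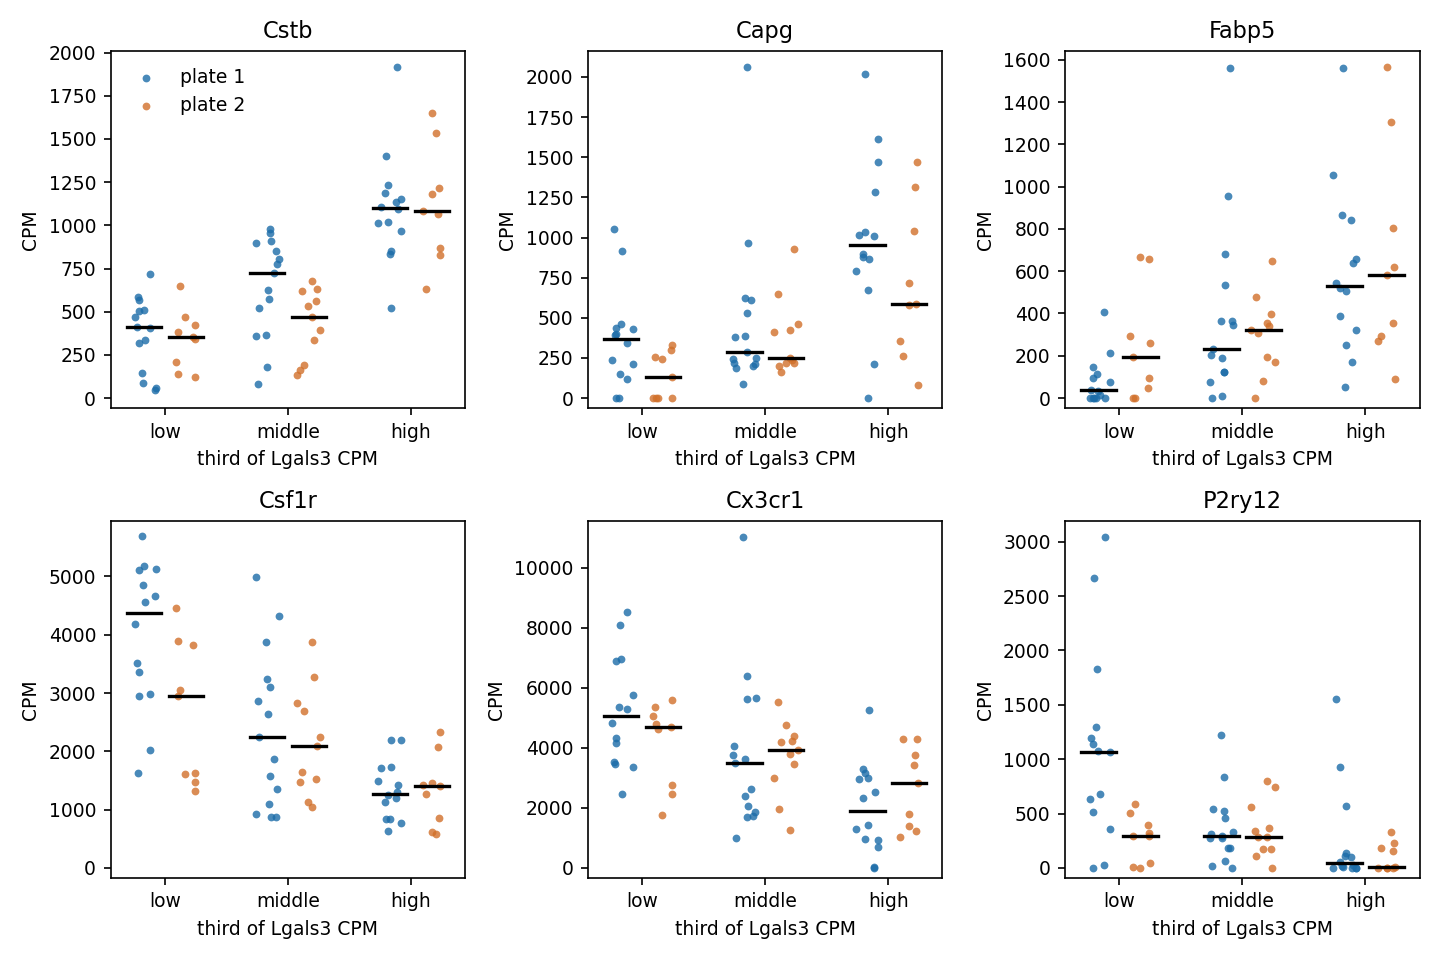
CPM in each non-cycling cell (blue plate 1, orange plate 2) by group of Lgals3 rank, with black bars as medians, for 3 genes higher and 3 lower in Lgals3-high cells. Cstb medians go from 381 in low to 1093 in high cells and Csf1r medians from 3517 to 1307, and for P2ry12 many high cells lie at or near 0.

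Because Lgals3, Capg, Cx3cr1 and P2ry12 differ together across these cells, the 250 bases before their RefSeq starts (GRCm38.p6) are shown, 5′ to 3′ on the strand of the gene. Capitals mark the only match among these 4 windows to 3 motifs searched on both strands: the E-box CACGTG, which is its own reverse complement, the AP-1 motif TGANTCA and the ETS motif GAGGAAGT. The windows are chr14:47373610-47373859 on the plus strand for Lgals3, chr6:72549397-72549646 on the plus strand for Capg, chr9:120068297-120068546 on the minus strand for Cx3cr1 and chr3:59262986-59263235 on the minus strand for P2ry12. Those of Lgals3, Capg and Cx3cr1 lie inside the spans that GENCODE gives these genes, so where the start lies depends on the annotation. That of P2ry12 lies outside its span.
Lgals3: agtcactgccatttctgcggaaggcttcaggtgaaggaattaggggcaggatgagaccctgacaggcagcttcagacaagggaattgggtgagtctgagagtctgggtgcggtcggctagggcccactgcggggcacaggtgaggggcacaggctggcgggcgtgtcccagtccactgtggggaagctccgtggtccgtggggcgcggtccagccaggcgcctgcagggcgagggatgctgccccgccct
Capg: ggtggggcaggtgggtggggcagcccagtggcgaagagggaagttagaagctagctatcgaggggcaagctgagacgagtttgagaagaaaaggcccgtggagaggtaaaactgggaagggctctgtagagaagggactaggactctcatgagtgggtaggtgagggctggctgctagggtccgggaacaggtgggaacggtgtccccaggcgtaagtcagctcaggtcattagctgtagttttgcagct
Cx3cr1: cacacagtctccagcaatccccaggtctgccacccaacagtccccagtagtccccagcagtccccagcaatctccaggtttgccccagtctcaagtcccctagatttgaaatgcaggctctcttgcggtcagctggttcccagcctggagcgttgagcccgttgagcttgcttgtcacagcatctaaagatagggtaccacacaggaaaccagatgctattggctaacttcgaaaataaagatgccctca
P2ry12: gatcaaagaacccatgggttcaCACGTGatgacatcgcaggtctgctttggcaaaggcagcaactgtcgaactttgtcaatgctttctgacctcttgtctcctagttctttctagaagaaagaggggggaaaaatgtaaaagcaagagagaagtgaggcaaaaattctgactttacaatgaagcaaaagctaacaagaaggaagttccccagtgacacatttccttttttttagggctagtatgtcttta
The Lgals3 window holds 13 CG pairs, that of Capg 7, that of Cx3cr1 4 and that of P2ry12 3. The single E-box lies in the window of P2ry12, a gene that was lower in Lgals3-high cells. Among the widely read genes whose symbol matched a RefSeq promoter, with 1 window of that length for each gene, the E-box was in 8 of 56 higher genes (14.3%) and 3 of 27 lower genes (11.11%), beside 52 of 542 widely read genes (9.59%) and 6.05% of all 27025 genes with a window. A match is a string of letters and no binding was measured.

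Few genes of the lysosome were called. Of 37 genes for subunits of the proton pump V-ATPase and for lysosome membrane proteins, 4 were higher (Atp6v1a, Atp6v1d, Atp6v1g1 and the peptide transporter Slc15a3) and 1 was lower (Tmem175). The share higher, 10.8%, was near the 12.6% of all genes, and the median log2 ratio of 0.47 (0.48 on plate 1 and 0.11 on plate 2) was no larger than that of all genes on plate 2, which was 0.12. Atp6v1g1 had medians of 280 CPM in low, 442 in middle and 791 in high cells, and 22 of 23 high cells lay above the low median. Of 44 hydrolases, 1 was higher (Gla) and 6 were lower (Ctsf, Ctsh, Galns, Naglu and Gm2a among them), 2.27% and 13.6% against 12.6% and 9.11% of all genes, with a median of -0.26 (-0.25 and -0.34) that turned to 0.28 with spike-in scaling, below the median of all genes there. The most abundant cathepsins differed little in CPM: Ctsb had medians of 23780 CPM in low and 22688 CPM in high cells and a log2 ratio of -0.08 (0.35 with spike-in scaling), and Ctsd 20124 and 17313 CPM with a log2 ratio of -0.29 that became 0.16 with spike-in scaling. Gm2a, an activator protein for ganglioside breakdown, had medians of 654, 518 and 365 CPM and a log2 ratio of -0.75 (-0.65 and -0.93).

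The 10 genes with the most negative rho with Lgals3 included Pld4, Lgmn and Hexa, whose products act in lysosomes. Pld4, a nuclease of endosomes and lysosomes, had medians of 2036 CPM in low, 1137 in middle and 771 in high cells, 0 of 23 high cells lay above the low median, and its log2 ratio was -1.32 on both plates together (-1.32 and -1.31). Lgmn, a lysosomal asparaginyl protease, had medians of 8498, 6612 and 6018 CPM and Hexa, a subunit of hexosaminidase, 2661, 2084 and 1656 CPM. Lgmn and Hexa had log2 ratios of -0.54 and -0.66 and were not called. The other genes of that group besides Csf1r were Fcgr3, Aif1, C1qc, Serinc3, D4Wsu53e and Itm2b. Serinc3, a membrane protein, had medians of 797 CPM in low and 386 CPM in middle cells and 0 to 828 CPM in high cells, a log2 ratio of -1.90 (-2.25 and -1.16), and all 23 low cells above the high median.

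Of 21 genes for phagocytic and Fc receptors compared, Lilrb4 was higher and Fcgr1, Fcgr2b, Fcgr3 and the bridging protein Mfge8 were lower, 4.76% and 19.05% against 12.6% and 9.11% of all genes, and the list median of -0.10 became 0.25 with spike-in scaling. Fcgr3, a low-affinity IgG receptor, had medians of 1623 CPM in low, 1230 in middle and 945 in high cells and a log2 ratio of -0.95 (-0.90 and -1.08). Its signalling partner Fcer1g differed by 0.07. Of 10 complement genes 2 were lower (C2 among them), 20.0% against 9.11% of all genes, and 0 were higher. The list median was -0.17 over both plates, with -0.55 on plate 1 and -0.53 on plate 2, and it became 0.20 with spike-in scaling. The subunits of C1q, which opens the classical cascade, were lower in CPM and were not called: C1qa had a log2 ratio of -0.53, C1qb -0.28 and C1qc -0.54, and C1qb turned to 0.16 with spike-in scaling. C1qc had medians of 4869, 4844 and 3209 CPM, so that low and middle cells were alike.

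Lipid genes were neither higher nor lower as a block. Of 24 genes for lipid uptake, storage and efflux compared, 4 were higher (Lpl, Fabp5, the droplet protein Plin3 and the lipase Pnpla2) and 4 were lower (the efflux pumps Abca1 and Abcg1, Dgat1 and Pltp), 16.7% in each direction against 12.6% and 9.11% of all genes, and the list median was 0.40 on plate 1 and -0.38 on plate 2. Abca1, which loads cholesterol on lipoprotein particles, had medians of 675 CPM in low, 609 in middle and 285 in high cells and a log2 ratio of -1.10 (-1.20 and -0.95). Abcg1 had medians of 1612, 1306 and 848 CPM, 22 of 23 low cells above the high median, and a log2 ratio of -0.86 (-0.91 and -0.79). Ranked separately above and below the median of genes detected, these ratios were -0.33 and -0.22, less than the fold. Plin2, the main coat protein of lipid droplets, differed by 0.23 and was not called.

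Lists of energy metabolism had medians above that of all genes. Their shares of higher genes were near that of all genes, and 0 were lower, against 9.11% of all genes. The 18 glycolysis genes compared had a median log2 ratio of 0.82, with 1.37 on plate 1 and 0.22 on plate 2, and 3 were called higher (the transporters Slc2a1 and Slc16a3 and the hexokinase Hk3) and 0 lower, 16.7% higher against 12.6% of all genes. Ldha, which makes lactate, had medians of 1290 CPM in low, 1741 in middle and 2768 in high cells, with log2 ratios of 1.52 and 0.15, so the difference was carried by plate 1. Nuclear genes of oxidative phosphorylation had a smaller median of 0.25 that was the same on the plates (0.24 and 0.26), and of 44 compared 7 were higher (Ndufa4, Ndufb7, Cox5a, Cox7a2, Cox7b, Atp5g1 and Cycs) and 0 lower, 15.9% higher against 12.6% of all genes. Atp5g1, a subunit of the membrane rotor of ATP synthase, ran from 0 through 118.2 to 335 CPM in low, from 0 through 174 to 401 CPM in middle and from 177 through 333 to 647 CPM in high cells, and its log2 ratio was 1.35 (1.42 and 1.22). All 23 high cells lay above the low median of Atp5g1. Among genes read in at least 80% of cells, 0 of 11 for glycolysis and 6 of 34 for oxidative phosphorylation were higher. The share of all such genes was 9.58%.

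Genes of protein folding in the endoplasmic reticulum had a median above that of all genes on both plates. Of 20 compared 6 were higher (Hsp90b1, Pdia6, Dnajb11, Dnajc3 and the transcription factors Xbp1 and Atf4), against 12.6% of all genes, and 0 were lower, with a median log2 ratio of 0.68 (0.76 and 0.53). Pdia6, a disulfide isomerase, had medians of 467 CPM in low, 586 in middle and 933 in high cells and a log2 ratio of 1.08 (0.85 and 1.58). Xbp1 had medians of 159, 226 and 419 CPM and a log2 ratio of 1.05 (1.12 and 0.92). Atf4 was read in 5, 9 and 13 cells, and its log2 ratio of 1.47 became -0.14 when cells above and below the median of genes detected were ranked separately. Hspa5, the chaperone BiP of the same compartment, was higher by 2.16 on plate 1 and 0.43 on plate 2.

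Of 31 genes for the cytoskeleton, annexins and S100 proteins compared, 9 were higher (Vim, Pfn1, Capg, Coro1c, Rhoc, Anxa2, Anxa5, Crip1 and Tagln2), against 12.6% of all genes, and 0 were lower, with a median log2 ratio of 0.33 (0.20 and 0.50). Vim, the intermediate filament protein vimentin, was read in 12 of 23 low, 11 of 26 middle and all 23 high cells, with medians of 37.0, 0 and 368 CPM and a log2 ratio of 1.54 (1.61 on plate 2). Low and middle cells were thus alike for Vim, and high cells had a higher median. The ranges overlapped, since only 3 of 23 high cells lay outside the range of low cells and 3 low cells lay above the high median. Pfn1, the actin-binding profilin, had medians of 1338, 1601 and 2189 CPM, ranges of 415 to 2508 in low and 1161 to 4096 in high cells, and a log2 ratio of 0.84 (0.74 and 1.00). Anxa2, an annexin of endosomes and the cell surface, had medians of 345, 663 and 792 CPM and a log2 ratio of 1.21 (1.02 and 1.58). Actb, the actin subunit itself, differed by 0.09.

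Most of the listed galectin genes did not pass the filter for the comparison. Besides Lgals3, 3 of 9 listed galectin genes were compared, and Lgals1 was the higher one, at 0 to 1117 CPM with a median of 342 in low, 654 in middle and 301 to 1864 CPM with a median of 802 in high cells. The log2 ratio of Lgals1 was 1.29 (1.03 and 1.72). Lgals9 had a ratio of -0.08 and Lgals8 of -0.76 (-0.92 and -0.46), and Lgals9 turned to 0.48 with spike-in scaling. Of 16 compared genes for known galectin-3 partners and for the enzymes that branch N-glycans, 0 were higher and 2 were lower (Tlr4, read in 3 low and 3 high cells, and Mgat1, read in 11 and 7), and the share lower, 12.5%, was near the 9.11% of all genes, of which 12.6% were higher. The median of these 16 was -0.33 (-0.36 and -0.28), which became 0.07 with spike-in scaling.

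Among regulators, 1 of 21 transcription factors compared was higher and 4 were lower (Sall1, Mef2c, Rxra and Etv5), 4.76% and 19.05% against 12.6% and 9.11% of all genes, and the list median of -0.31 became 0.08 with spike-in scaling and 0.20 when the log2 values of cells were averaged. The higher factor was Runx1, a regulator of blood cell and early microglial development, which was read in 4 low, 8 middle and 13 high cells and had a log2 ratio of 2.76 (2.45 and 3.68). Of 10 genes for matrix proteases and plasminogen activation compared, 3 were higher (the urokinase Plau, its receptor Plaur and Serpinb6a) and 1 was lower (Adam10), 30.0% and 10.0% against 12.6% and 9.11% of all genes. Plau was read in 4, 6 and 14 cells, with a highest cell of 573 CPM in low and 5643 CPM in high cells, and its log2 ratio was 3.92 on plate 1 and 0.59 on plate 2. Plaur was read in 12, 20 and 20 cells and had medians of 12.2, 164 and 299 CPM.

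Of 19 genes for iron and oxidative stress compared, the mitochondrial dismutase Sod2 was higher and the iron exporter Slc40a1, the peroxiredoxin Prdx5, the cytosolic dismutase Sod1 and Gpx3 were lower, 5.26% and 21.1% against 12.6% and 9.11% of all genes. Sod1 had medians of 378, 260 and 182 CPM and a log2 ratio of -0.79 (-0.79 and -0.80). Slc40a1 was read in 15, 18 and 10 cells, with a log2 ratio of -1.73 (-2.14 and -1.18). Ftl1, the light chain of ferritin that stores iron, was not called at 0.29 on each plate, yet all 23 high cells lay above the low median of 9001 CPM.

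Ribosomal protein genes differed little, with a median log2 ratio of 0.12 (0.13 and 0.12) over 49 genes, 4 of them (8.16%) higher and 0 lower, against 12.6% and 9.11% of all genes. The 8 chemokine and cytokine genes compared had a median of 1.59 on plate 1 and -0.28 on plate 2, and only Mif was called. Genes of the interferon response and of MHC class I, with 5 and 8 compared, had 0 calls in either direction by this rule. Genes of the cell cycle outside the rule for non-cycling cells were too sparse for this comparison, with 1 of 27 S-phase and 1 of 31 G2/M genes past the filter. Their summed levels had medians of 141.3, 380 and 344 CPM for S phase and 154, 94.7 and 38.8 CPM for G2/M in low, middle and high cells. The highest cells reached 1260, 1039 and 1178 CPM for S phase and 3420, 1564 and 334 CPM for G2/M. Cenpa was read in 6 low and 1 high cells, Ccnb2 in 4 and 1, Tacc3 in 4 and 2, and Smc4 in 2 and 7. The rule thus kept some cells with G2/M reads, and whether these were cycling was not tested. A cell with none of the 10 S-phase genes of the rule was found 8 times in low, 5 times in middle and 3 times in high cells, and cells with 1 mitotic gene of the rule 5, 6 and 5 times.

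**Figure D4:**
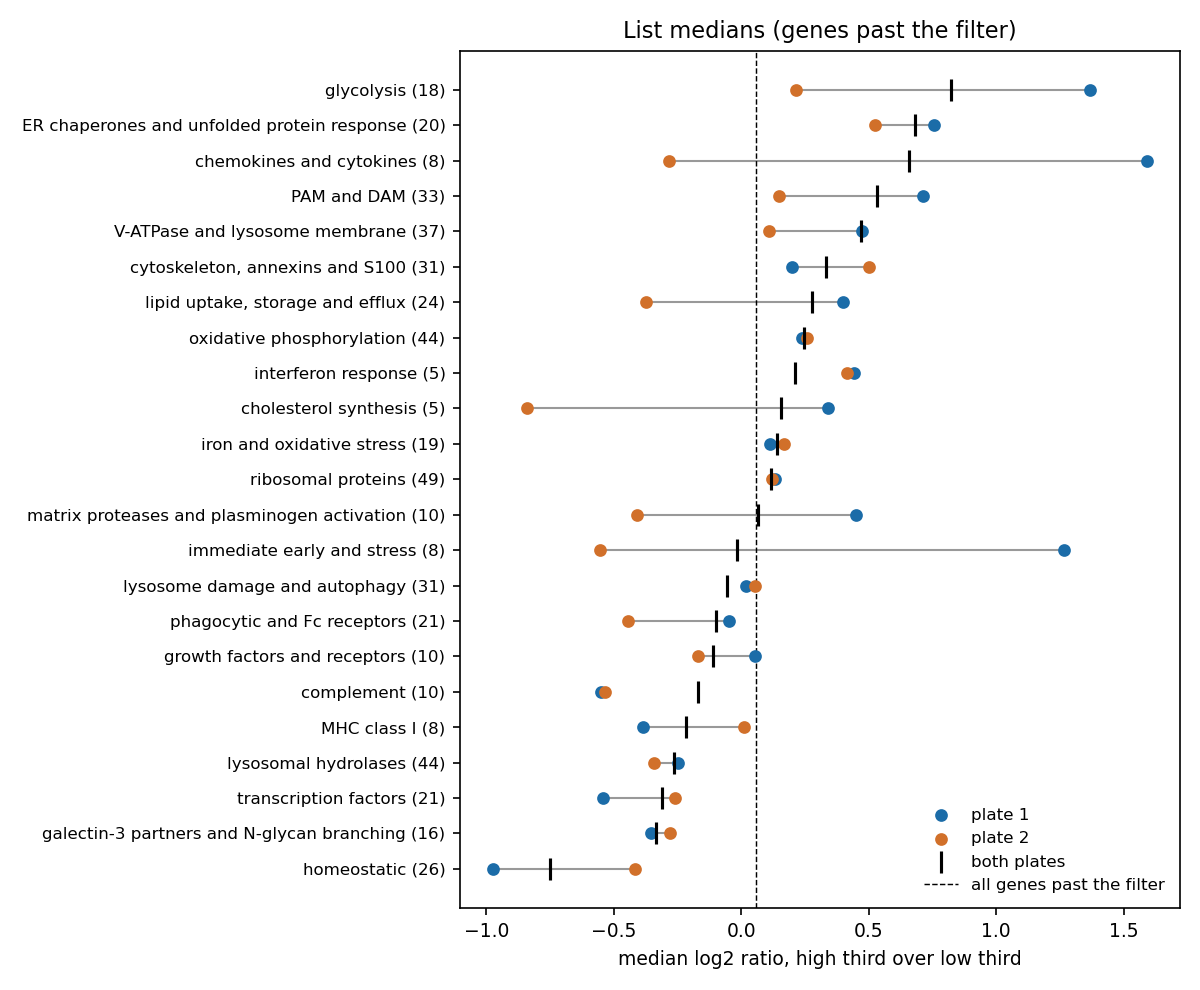
Median log2 ratio of Lgals3-high over Lgals3-low cells for each gene list with at least 5 genes compared (number in brackets), on plate 1 (blue), plate 2 (orange) and both (black bar); the dashed line is the median of all genes, 0.06. Homeostatic genes lie lowest at -0.75 and stay below 0 with spike-in scaling, which turns every other list median drawn below 0 positive (0.28 for lysosomal hydrolases), while plates lie far apart for glycolysis and for chemokines and cytokines.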

How the data were processed

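Single-cell Smart-seq2 read counts of 143 microglia from 1 pool of animals were analysed. Per the submitters' processing notes, the tools were STAR 2.5.3a, HTSeq, Picard and Trim Galore 0.4.3 with genome build mm10; their settings, the annotation and the use of strand are not given in the sources used here. The authors deposited whole-number counts per gene and cell, with 23337 gene rows and 92 spike-in rows; 0 pairs of cells were identical. Total counts of the non-cycling cells ran from 472301 to 1226521. Gene coordinates are from the GENCODE annotation of the same build.

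CPM were computed here per 1000000 gene counts, with spike-ins left out and the ribosomal precursor Rn45s kept. No cell was removed and no doublet caller was run. With 1 sample, groups were compared by the log2 ratio of mean CPM plus 1 and by the same direction and 1.5-fold on each plate, with no test; the code was checked on simulated data. The text names Lgals3, the gate genes, members of the gene lists that were called or most abundant, the 10 genes in each direction most like Lgals3 in Spearman's rho on both plates, the 15 largest ratios in each direction, and genes added after their values were seen; a few genes that this rule takes are not reported here. Shares have exact 95% Clopper-Pearson intervals in the tables. The members and gene lists were chosen with earlier results of these data known. Alternatives covered scaling, averaging, pseudocount, filters, ranking, the cycling rule, depth and plate (Python 3.11.15, pandas 2.3.3, scipy 1.17.1).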

Additional observations from a re-analysis of the deposited data

How the results depend on the processing

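Counts of called genes depended strongly on the settings. Against 611 higher and 441 lower genes, spike-in scaling gave 1111 and 195, averaging log2(CPM + 1) over cells 1395 and 268, a filter of mean CPM 1 1389 and 997 and of mean CPM 50 333 and 247, plate 1 alone 1516 and 1301 and plate 2 alone 1688 and 1290. Leaving out the highest cell of each group gave 947 higher genes, a split at the median in place of 3 groups 404 and all 143 cells 334. Of the 611 and 441 genes, 273 and 193 remained when cells above and below the median of genes detected were ranked separately, and, as settings chosen after seeing the data, 340 and 272 without the 10 cells with fewest genes and 69 and 38 among genes read in at least 80% of cells. Spike-in scaling moved the median of all genes to 0.47 and averaging log2 values moved it to 0.60. Over all settings the PAM and DAM median lay between 0.15 and 0.91 and the homeostatic median between -0.98 and -0.23, the latter with spike-in scaling. Spike-in scaling turned the sign of 11 of 27 list medians. Among lists whose median had the same sign and a size of at least 0.1 on each plate, the sign turned with spike-in scaling for galectin-3 partners (0.066), lysosomal hydrolases (0.28), complement (0.20) and transcription factors (0.079, and 0.20 with averaged log2 values), and for the interferon response with the filter of CPM 1 (-0.35), both plates ranked together (-0.010) and separate ranking by genes detected (-0.15). Of 2106 values for the called genes named, 2094 kept their sign. The exceptions were Dnajc3 (-1.21), Atp6v1a (-0.024), Adam10 (0.089), Serpinb6a (-0.047) and Coro1c (-0.56) with the stricter cycling rule; Atf4 (-0.14) with separate ranking by genes detected; Hmgcs1 (0.064) with the split at the median; Tlr4 (0.40) and Tmem97 (-0.20) over all cells; C2 (0.057) and H2-DMb1 (0.25) with averaged log2 values; and Mfge8 (0.33) without the 10 cells with fewest genes. The cause of each was not tested. No paired analysis was possible because the cells form 1 sample. Reads without molecular identifiers limit what depth can show: a gene read in 0 of 23 cells may be read in up to 14.8% of such cells by the exact interval, and spread between animals cannot be seen.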

Other observations

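The largest ratios on both plates belonged to genes read in few cells, for which shares of cells are given in place of folds. Tmem184c was read in 0 of 23 Lgals3-low, 8 of 26 middle and 13 of 23 high cells, Polr1c, a subunit of RNA polymerases I and III, in 0, 5 and 11, and Sbf1 in 0, 6 and 10. Msra, which repairs oxidised methionine, was read in 0, 7 and 8 cells, the adenylate cyclase Adcy3 in 0, 6 and 9, and Ikbkap in 0, 8 and 7. Ddx21, Hnrpll, Pgap1, Slc35d2, Maz, Asb10, Arih2, Cinp and Tmem97 complete the 15, with reads in 0 to 3 low cells. In the other direction Pxmp4, a peroxisomal membrane protein, was read in 11, 7 and 1 cells, the interferon-induced kinase Eif2ak2 in 10, 6 and 1, and the receptor Gpr146 in 7, 7 and 1. Tcf20, Nf1, H6pd, Cercam, Notch1, Kidins220, Siae, Creb1, Med13, Pum2, Sugt1 and Dock4 were the other 12. At 4 high cells against 10 low cells, Tcf20 shows how few cells these ratios rest on.

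Fam20c and Slc39a2 were also higher in Lgals3-high cells. Fam20c, the kinase of the secretory pathway that phosphorylates osteopontin, was read in 5 low, 13 middle and 18 high cells with medians of 0, 0.736 and 400 CPM and a log2 ratio of 3.38 (3.90 and 2.68 by plate), while its substrate gene Spp1 was not called. Slc39a2, a zinc transporter, was read in 2, 10 and 16 cells with log2 ratios of 3.29 and 2.93. Both were chosen after their values were seen. In the opposite direction Ypel3 was read in 19, 21 and 11 cells with medians of 388, 80.8 and 0 CPM, and the transporter Abca9 in 18, 15 and 10 cells with medians of 352, 50.4 and 0 CPM. Of the markers of other cells, Csf3r, a receptor known from neutrophils, was lower, with reads in 18, 15 and 10 cells and a log2 ratio of -1.74 (-2.03 and -1.19), while the neutrophil genes S100a9, Retnlg, Camp and Ngp were at 0 in low and high cells. Cspg4 was read in 0, 2 and 9 cells, while the other 6 markers of oligodendrocyte precursors, Pdgfra, Gpr17, Olig1, Olig2, Sox10 and Bmp4, were at 0 in low and high cells.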
